A study of Mus musculus with 4 samples.

Results

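Near-silent chromatin regions that opened in cells carrying a Malat1 guide are described here. They are 312 of the 80881 ATAC-seq peaks in the authors' deposited table, or 0.386%. The peaks were chosen by the authors' group means: a log2 mean below 4 in control cells, that is fewer than 16 normalized reads, and a mean with the Malat1 guide at least 2 log2 units, or 4-fold, higher. Both values come from the contrast itself, so the size of the rise and the calls at these peaks are descriptions and support nothing.

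The cells are a mouse lung adenocarcinoma line derived from a KP lung tumour, which the labels call KPC cells. All groups were transduced with SpCas9 and selected with puromycin, and CRISPR activation was delivered with the lenti-SAM-Hygro vector. The groups are mA2 dRNA, which targets Malat1, and Con dRNA, which targets luciferase, a gene the mouse genome lacks, with 2 libraries each described as biological replicate cell samples. Whether a group was 1 clone or a mixed population was not given in the sources used here. Deposited columns dmA12 and dLuc were taken as the mA2 and Con groups.

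ATAC-seq uses a transposase that inserts adapters where DNA is not wrapped or covered, so the reads in a region measure how open it is. Open regions far from genes are often enhancers, and many are used in only a few cell types. Malat1 is an abundant long noncoding RNA of the nucleus that gathers at nuclear speckles. CRISPR activation brings transcriptional activators to a chosen promoter without cutting it.

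No spread between libraries is printed, because 4 per-library columns carry names that match no sample label and were not used. It was therefore not checked whether both libraries of a group lay on the same side at each peak. Levels below are means of normalized reads as the authors computed them for each peak. All peaks of the set have the same width, and 126 of the 80881 have another. A peak is called where its FDR, the adjusted p of the authors' deposited table, was under 0.05. At levels this low counting error is large, and it was not computed from group means. In bulk libraries, more cells with an open region and a more open region in each cell cannot be told apart. Summed over all peaks the Malat1 guide means were 1.07 times the luciferase means, and the median difference over all peaks was 0.09 log2 units.

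Several of these peaks cover a start site, and 4 genes have a RefSeq promoter window (GRCm38.p6, the assembly of mm10, 250 bases before to 50 after the start) that lies wholly inside one. The 250 upstream bases are shown for 3 of them to let a reader see the DNA that went from near-silent to open, and for Tnfsf15, where the last 125 of the bases shown lie in the peak and the first 125 outside it. Capitals mark TGANTCA, the core letters bound by AP-1 factors, searched on both strands, and the sequences read 5′ to 3′ on the gene's strand.
Ctla2a, chr13:60936626-60936875, minus strand: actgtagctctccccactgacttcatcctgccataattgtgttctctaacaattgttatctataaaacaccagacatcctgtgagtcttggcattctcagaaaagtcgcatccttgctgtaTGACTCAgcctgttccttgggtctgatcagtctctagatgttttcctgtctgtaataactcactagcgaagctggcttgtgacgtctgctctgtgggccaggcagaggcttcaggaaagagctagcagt
Orm3, chr4:63355908-63356157, plus strand: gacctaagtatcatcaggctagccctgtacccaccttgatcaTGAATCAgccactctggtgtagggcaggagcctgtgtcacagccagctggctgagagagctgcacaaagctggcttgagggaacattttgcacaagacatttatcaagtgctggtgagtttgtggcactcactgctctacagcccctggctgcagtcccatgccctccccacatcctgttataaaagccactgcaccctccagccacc
Gm30214, chr14:53039467-53039716, minus strand: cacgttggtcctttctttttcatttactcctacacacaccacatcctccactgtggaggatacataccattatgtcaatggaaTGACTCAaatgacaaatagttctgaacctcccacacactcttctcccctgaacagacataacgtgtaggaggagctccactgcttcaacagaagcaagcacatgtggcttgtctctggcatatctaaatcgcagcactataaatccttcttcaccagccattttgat
Tnfsf15, chr4:63745060-63745309, minus strand: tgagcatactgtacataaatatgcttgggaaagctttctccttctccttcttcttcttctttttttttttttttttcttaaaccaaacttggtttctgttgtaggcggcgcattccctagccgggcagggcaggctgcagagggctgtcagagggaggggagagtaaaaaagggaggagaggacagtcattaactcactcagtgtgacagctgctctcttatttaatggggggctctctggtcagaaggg

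All 4 genes whose window lies wholly in one of these peaks, Ctla2a, Orm3, Gm30214 and Gm11228, hold the AP-1 letters once. The match begins 129 bases upstream of the start in Ctla2a, 208 in Orm3 and 167 in Gm30214, and it lies 23 bases past the start in Gm11228. Of 32817 RefSeq promoter windows of the same length, 7.81% hold these letters, and so do 7.31% of the 3760 windows that lie wholly inside any peak. The share was 2 of 20 for windows inside the other near-silent peaks and 9 of 49 for windows inside other peaks called higher. Windows of another 5 genes overlap a peak of the set in part, and 1 of them, Arap2, holds the letters, at a position outside the peak, which covers 28 bases of that window. Of the 10 windows overlapping wholly or in part, counting both of Ctla2a, 6 hold the AP-1 letters and 5 the E-box letters CAGCTG. The E-box letters stand in 16.3% of all promoter windows. These are matches of letters over very few promoters and no test was made. The 10 windows that overlap a peak of the set wholly or in part, counting both windows of Ctla2a, had a median GC content of 48.5%. It was 52.7% for all promoter windows.

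In control cells the 312 peaks held a median of 9.22 normalized reads, with a range from 1 to 15.99. Only 0.438% of all peaks were weaker than that median, a position that the rule fixes. With the Malat1 guide the same peaks held a median of 47.5 reads, with quartiles of 37.1 and 59.3. Opening did not make them strong: 33.6% of all peaks were weaker than 47.5 reads, and 22 of the 312 passed the all-peak median of 76.3. A single peak exceeded 100 reads. The median difference was 2.31 on the log2 scale, and 31 peaks rose by 3 units or more.

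**Figure D1:**
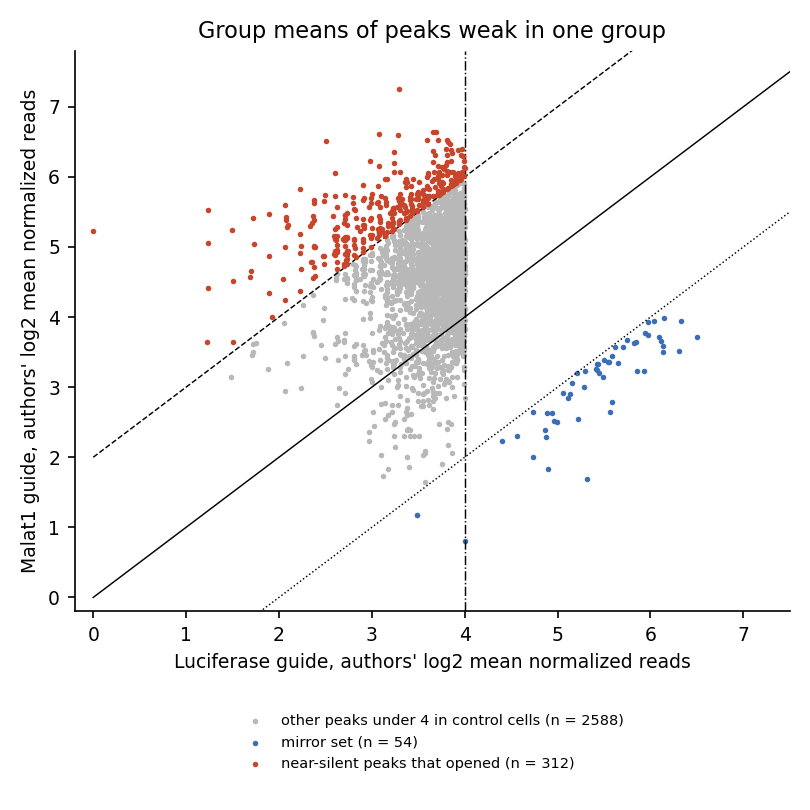
Authors' log2 mean normalized reads of each peak with the luciferase guide (horizontal) and the Malat1 guide (vertical), 1 point per peak. The solid line marks equal means, the dashed and dotted lines differences of 2 and -2, and the vertical line the control level of 4. The 312 peaks of the set lie above the dashed line, and the 54 peaks of the mirror set below the dotted one.

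The same rule applied in reverse found far fewer peaks. A mirror set, with a log2 mean below 4 with the Malat1 guide and 2 units or more higher in control cells, held 54 peaks, so the opened set was 5.78 times as large. Of the 2900 peaks near-silent in control cells, 10.8% belonged to the opened set. Of the 1815 peaks near-silent with the Malat1 guide, 2.98% belonged to the mirror set. With the differences centred on their median over all peaks, the sets held 254 and 68 peaks.

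In the authors' deposited table, 277 of the 312 peaks were called higher, beside 2.23% of all peaks, and 0 were called lower. All 312 had an unadjusted p under 0.05, and their largest FDR was 0.322. Of all peaks, 8.86% had both an unadjusted p under 0.05 and an authors' log2 fold above 0. Since the rule used this contrast, nothing is read from these shares. The 35 peaks without a call held a median of 28.4 reads with the Malat1 guide, while the called ones held 49.9, and the ranges overlapped. The log2 fold of the authors' deposited table had a median of 1.36 over the set, below the median difference of 2.31.

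The strongest opened peak lies in an intron of Cpne4, a calcium-dependent membrane-binding protein, at chr9:104872127-104872527. The authors assigned it to Mrpl3, 181 kb away. It held 9.81 reads with the luciferase guide and 152 with the Malat1 guide, a 15.5-fold difference with an FDR (the adjusted p) of 2.07e-09 per the authors' deposited table. A second peak of the set lies 6.27 kb away in Cpne4 too and held 15.3 and 65.4 reads.

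The next peaks by p included several near signalling genes, as the rule for named peaks picked them. An intronic peak of Sema5a, a transmembrane semaphorin, held 12.7 and 99.6 reads at chr15:32306553-32306953, with an FDR of 2.61e-06 per the authors' deposited table. An intergenic peak 120 kb from Erbb4, a neuregulin receptor, held 9.42 and 73.4 reads. An intronic peak of Pik3c2g, a class II phosphoinositide 3-kinase, held 9.45 and 81.8 reads. In each of these the Malat1 guide mean was 7.79 to 8.66 times the luciferase mean.

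Several others with a small p lay far from the start site of their assigned gene. They were assigned to Tmem161b at 391 kb, Dhx35, an RNA helicase, at 374 kb and Dthd1 at 113 kb, with 92.1, 92.6 and 97.0 reads with the Malat1 guide. Their control means were 13.1, 13.99 and 9.75 reads. A peak in Chn1os3 held 12.1 and 92.4 reads and a peak 17.9 kb from Ctsll3 8.45 and 71.3. The FDR of these 5 peaks ran from 4.39e-06 to 2.14e-05 in the authors' deposited table.

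The largest difference of the set belonged to a peak 490 kb from Fut8, a fucosyltransferase. It held 37.5 reads with the Malat1 guide, while its luciferase mean stands at 1 read, the lowest value of the column and the only one at a log2 of 0. No fold is given for it. The next largest differences were at Sod3 and in Aff3, described below.

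At the borders of the rule the values run on without a gap. The peaks just inside the difference of 2 were at AI197445, Alk and Trappc10, with differences of 2.00, 2.01 and 2.01. Those just outside were assigned to Slc5a3, Gm12724 and Dut, with 2.00, 2.00 and 1.99 when rounded. Just inside the control level were peaks at Gm4668, Tmem100 and Slc8a1 with 15.99, 15.96 and 15.96 reads. Just outside were peaks at Mir3473f, Muc5ac and 1700099I09Rik with 16.2, 16.3 and 16.4 control reads and 71.3, 66.2 and 87.9 reads with the Malat1 guide.

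Few of the opened peaks were promoters. Within 3 kb of a start site lay 21 of the 312, or 6.73%, beside 22.3% of all peaks and 6.57% of the other 2588 near-silent peaks. The authors annotated 44.9% as distal intergenic and 43.3% as intronic, and the shares among the other near-silent peaks were 43.3% and 43.5%. By class, then, the opened peaks stood close to the other near-silent peaks. The sets were not matched for control level, with medians of 9.22 reads for the opened peaks and 13.5 for the other near-silent peaks. Exons held 19, the 3′ and 5′ untranslated regions 3 and 1, and promoters as annotated by the authors 14.

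The opened peaks lay farther from start sites than the other near-silent peaks did, as a description without a test. The median distance to the assigned start site was 95.2 kb for the opened peaks, 39.6 kb for the other near-silent peaks, 44.1 kb for the mirror set and 19.3 kb for all peaks. More than 200 kb from a start site lay 24.0% of the opened peaks and 11.9% of the other near-silent peaks. Among near-silent peaks the median distance was 27.8 kb where the mean was lower with the Malat1 guide. It was 29.5, 36.9, 51.3 and 58.5 kb in successive steps of 0.5 in the difference up to 2. It then reached 86.5 kb for differences of 2 to 2.5 and 112 kb above that. The control level moved with the difference, from a median of 13.7 reads in the lowest step to 6.57 in the highest, and its part in the distances was not tested.

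**Figure D2:**
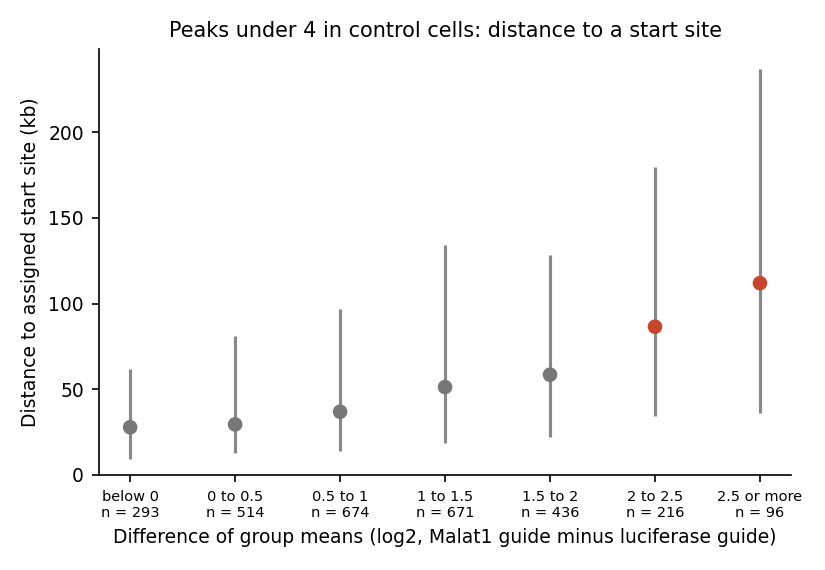
Distance from the peak to the start site of its assigned gene (kb, vertical) for the 2900 peaks below a log2 mean of 4 in control cells, in steps of the difference between the group means (horizontal). Points are medians, bars run from the lower to the upper quartile, and red points are the opened set. The median rises from 27.8 kb below 0 to 112 kb at 2.5 or more.

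The opened peaks also lay where genes and peaks are sparse. Within 500 kb on either side stood the centres of a median of 4 protein-coding genes of RefSeq, beside 7 for the other near-silent peaks and 10 for all peaks. The median number of other ATAC peaks in that window was 22, beside 39 and 56. Inside a protein-coding gene lay 38.1% of the opened peaks, and their host genes were long, with a median of 319 kb. The hosts of the other near-silent peaks had a median of 125 kb and those of all peaks 79.1 kb.

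Because of these distances the authors' assigned gene often differs from the gene around the peak. Of the 119 peaks inside a protein-coding gene, 60 were assigned to that host and 59 to another gene. The 312 peaks were assigned to 243 genes, of which 202 had a single peak of the set. The genes with the most were Gm5099 with 6, and Flrt2, Gm19303, Gm4251, Gm4668, Gria1 and Mir6351 with 4 each. The 6 Gm5099 peaks all lie inside Aff3.

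Some of the opened peaks came in groups, though most stood alone. No grouping of the other near-silent peaks is given beside it, so this is a description. Joining peaks of the set whose centres lay at most 200 kb apart gave 236 loci, of which 196 held a single peak, 25 a pair and 15 from 3 to 8 peaks. Those 15 loci held 66 peaks, or 21.2% of the set. With a limit of 100 kb the corresponding loci held 41 peaks, and with 500 kb 99. Between the outermost members of the 15 loci lay 22 further peaks. Of these, 13 were called higher, beside 2.23% of all peaks, and 0 lower, beside 0.507%. A mean above the control mean was found at 21. These peaks lie among peaks chosen by the same contrast, so the counts are a description. In 5 of the 15 loci every peak belonged to the set.

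The largest group lies inside Aff3, a nuclear protein of the AF4 family of transcription elongation factors. Its 8 peaks run over 251 kb of the 455 kb gene, from chr1:38237036 to 38488180, with luciferase means from 5.21 to 10.3 reads and Malat1 guide means from 34.3 to 98.1. The lead peak, at chr1:38248019-38248419, held 5.66 and 91.2 reads, a 16.1-fold difference with an FDR of 1.43e-08 per the authors' deposited table. The next, 14.3 kb away, held 8.45 and 98.1 reads. The other 4 peaks within the locus also had higher means, and 3 of them were called higher, beside 2.23% of all peaks. On the side of lower coordinates, 30 peaks within 600 kb of the lead had a median difference of -0.11, and 0 were called higher. The single peak on the other side had a difference of 1.79 and was not called.

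In Alk, a receptor tyrosine kinase, 5 peaks lay between introns 3 and 8 over 359 kb and were the only peaks there. In order of position they held 8.42, 7.51, 7.87, 12.9 and 15.5 reads with the luciferase guide. With the Malat1 guide they held 37.2, 59.2, 74.98, 99.4 and 62.2 reads. All 5 were called higher, beside 2.23% of all peaks and, by the choice of peaks, 88.8% of the set. The authors assigned 3 of them to Clip4. The 14 peaks on the low side within 600 kb of the lead had a median difference of -0.18. The 2 on the high side had a median of 0.53, and none of the 16 was called.

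Usp29, a deubiquitinase gene of an imprinted domain, held 5 peaks of the set in introns 3 and 4 over 140 kb, assigned by the authors to Mir3099 and Zim3. Their luciferase means ran from 6.06 to 14.4 reads and their Malat1 guide means from 34.5 to 79.6. The 26 peaks around them within 600 kb had a median difference of 0.17, and 2 were called higher.

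In the other 3 of these groups no peak of the set had its centre inside a protein-coding gene. Around Gfra2, a co-receptor for neurturin, and Gm4251, 7 peaks over 441 kb of chromosome 14 held 3.30 to 15.3 reads and 42.6 to 67.3 reads. All 7 were called higher, beside 2.23% of all peaks and, by the choice of peaks, 88.8% of the set. The Gfra2 promoter peak was among them, with 9.96 and 49.9 reads. Within 600 kb of the lead, the 18 peaks on the low side had a median difference of -0.10 with 0 called higher, and the single peak on the high side was called with 2.62. Between Trps1, a GATA-type repressor, and Gm19303, 6 peaks spread over 419 kb of chromosome 15 were the only peaks there and held 4.24 to 12.3 and 30.6 to 62.9 reads. Of the 20 peaks flanking them, 5 were called higher, 1 of which belongs to the set, and the median difference was 0.36. A further 5 near Tnp1 on chromosome 1 held 4.21 to 14.3 and 41.8 to 67.1 reads. The 35 peaks on its low side had a median difference of -0.01 with 0 called higher, and both peaks on the high side were called, with a median of 2.31. In the 6 loci with 5 or more peaks of the set, 42 of 44 peaks were called higher. These loci were picked for holding many opened peaks, so that share describes them and tests nothing.

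**Figure D3:**
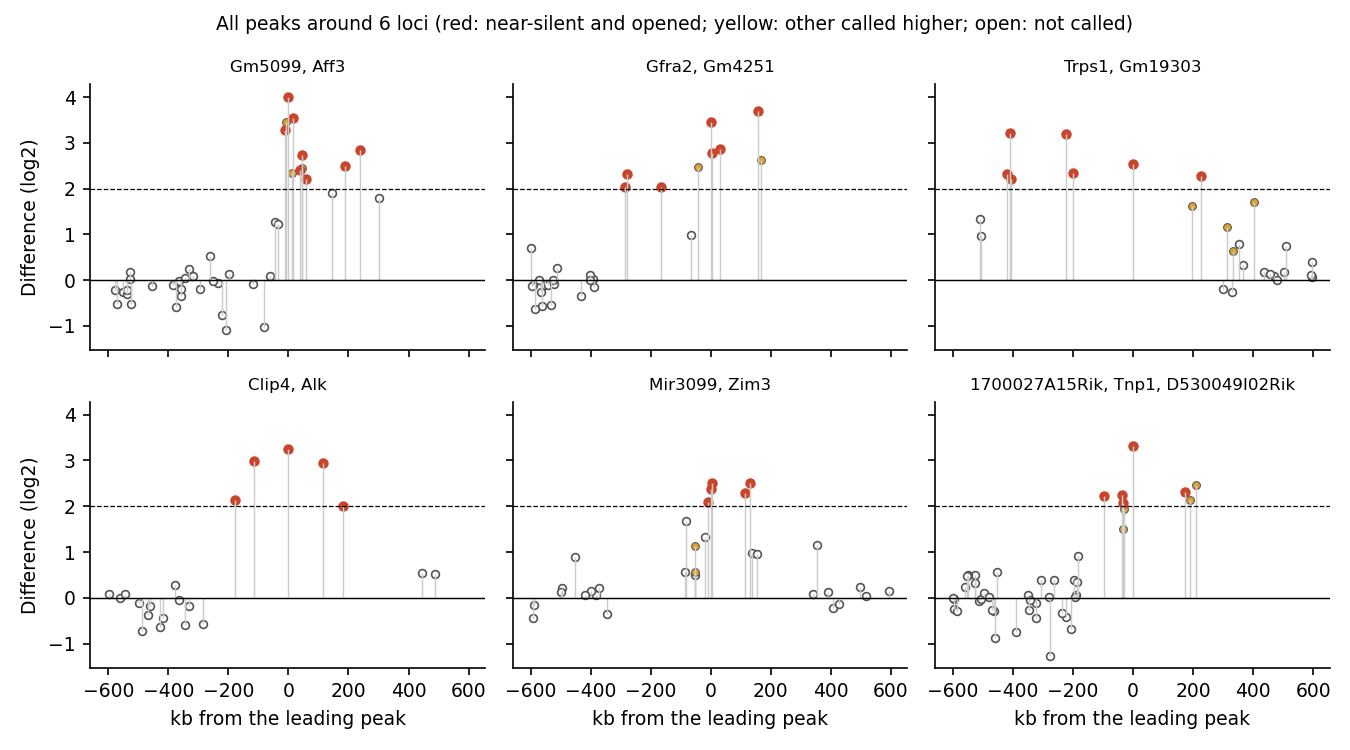
Difference of the group means (log2, vertical) for every peak within 600 kb of the lead peak (horizontal, kb) at the 6 loci with 5 or more opened peaks, titled by the genes the authors assigned. Red points are the opened set, yellow points other peaks called higher, open points peaks without a call, and the dashed line a difference of 2. Left of the Aff3 and Alk groups the medians are -0.11 and -0.18, and right of the Trps1 group 5 of 18 flanking peaks are called higher.

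Smaller groups included promoters. Sod3, which encodes extracellular superoxide dismutase, had 3 peaks of the set within 17.3 kb, the only peaks in that span. Its promoter peak, at chr5:52363717-52364117, held 4.66 and 57.0 reads, a 12.2-fold difference with an FDR of 5.61e-05 per the authors' deposited table. The peak 16.6 kb upstream held 2.36 and 46.1 reads and the third 7.09 and 42.6. All 3 control means are among the weak values where a few reads shift a ratio.

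Flrt2, an adhesion and guidance protein, had 4 peaks of the set among 15 assigned peaks. A promoter peak 0.947 kb from the start held 5.63 and 53.8 reads and a neighbour 0.804 kb farther, in intron 1, held 13.9 and 84.1. Both were called, with FDRs of 8.55e-05 and 7.12e-05 per the authors' deposited table. Over the 15 Flrt2 peaks 7 were called higher and 0 lower, beside 2.23% and 0.507% of all peaks. Of those 7, 4 are peaks of the set, which the rule chose by this contrast, so the share is a description.

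The other start-site peaks named by the rule covered genes of varied function. The peak over the Ctla2a start shown above, which the authors assigned to its close relative Ctla2b, a cathepsin inhibitor, held 5.60 and 50.4 reads. A peak at Clmp, an adhesion molecule of epithelial junctions, held 5.18 and 41.6 reads. The Orm3 peak, at an orosomucoid gene, a family of acute-phase plasma proteins, held 12.1 and 58.2, and the Tnfsf15 peak, at a TNF family ligand, 10.2 and 48.4. Peaks at Gm19303 and C030018K13Rik held 10.8 and 62.9, and 6.94 and 52.3 reads. The FDR of these 6 ran from 2.15e-04 to 0.0167 in the authors' deposited table.

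Start-site peaks that missed the call lay at Arap2, Sema3a and Ifitm1, with 38.2, 32.1 and 23.4 reads with the Malat1 guide and 8.60, 7.93 and 4.12 with the luciferase guide. Their FDRs in the authors' deposited table were 0.0617, 0.0731 and 0.0992. These 3 were named after their values were seen.

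Of 15 gene lists, neuronal and synaptic genes held the most opened peaks. They had 9 among 267 peaks, or 9 of their 34 near-silent peaks, which is 26.5% beside 10.8% of all near-silent peaks. Of the 9, 8 were called higher, beside 2.23% of all peaks and, by the choice of peaks, 88.8% of the set. The median difference over all 267 peaks was 0.29, beside 0.09 for all peaks. It was not particular to this list: the cell adhesion list had 0.34 over 237 peaks and the matrix list 0.27 over 480. Gria1, an AMPA receptor subunit, had 4, with 3.72 to 10.4 control reads and 20.4 to 61.0 with the Malat1 guide, and 1 of them, with 20.4 reads, was not called. Grm7, a metabotropic glutamate receptor, had 3 in intron 3 within 43.2 kb, with 65.3, 51.4 and 39.7 reads against 14.1, 11.3 and 7.57. Csmd3, a large membrane protein of neurons, and Rbfox1, a splicing regulator, had 1 each, with 46.1 and 41.1 reads against 9.87 and 8.51.

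Cell adhesion genes had 3 of their 16 near-silent peaks in the set, or 18.75% beside 10.8% of all near-silent peaks. An intronic peak of Cdh11, a mesenchymal cadherin, held 5.21 and 49.7 reads. An exonic peak of Itgb3, an integrin subunit, held 10.3 and 62.7. Cdh9, a neural cadherin, held 6.57 and 29.8 reads at a peak 162 kb away, with an FDR of 0.0470 per the authors' deposited table.

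Developmental transcription factors had 5 of 33 near-silent peaks in the set, or 15.2% beside 10.8% of all near-silent peaks, from 80.5 to 263 kb from the start site. A peak 263 kb from Irx1 held 12.8 and 57.9 reads, and a peak 118 kb from Six2 7.48 and 42.0. Tbx18 had 2, with 47.3 and 34.5 reads against 7.84 and 6.45, and Tshz2 had 1. All 5 were called higher in the authors' deposited table, beside 2.23% of all peaks and, by the choice of peaks, 88.8% of the set.

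Secreted signalling genes had 3 of 20 near-silent peaks in the set, or 15% beside 10.8% of all near-silent peaks. Besides Tnfsf15 these were an intronic peak of Bmp7, a bone morphogenetic protein, with 7.48 and 50.9 reads, and a peak 62.9 kb from Cxcl12, the ligand of Cxcr4, with 6.57 and 43.9. Their FDRs were 9.35e-04 and 0.00255 per the authors' deposited table. Matrix genes had 2 of 28, or 7.14%, a share below the 10.8% of all near-silent peaks. These lay in introns of Col8a1, a short-chain collagen, at 3.72 and 44.6 reads, and of Adamts12, a metalloproteinase, at 6.57 and 32.3. An exonic peak of Kcnh5, a potassium channel on the ion channel list, held 5.06 and 39.5 reads.

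Markers of other cell types gave small counts. Fibroblast and smooth muscle markers had 2 of 4 near-silent peaks in the set, beside 10.8% of all near-silent peaks, and 2 of 95 peaks in all, beside 0.386%. These 2 lay 89.0 kb from Meox2 with 6.06 and 38.3 reads and 85.9 kb from Postn with 6.15 and 32.7. Endothelial markers had 1 of 2 near-silent peaks and of 72 in all, a peak 24.4 kb from Cdh5 with 7.99 and 54.2 reads. Leukocyte markers had no near-silent peak among 31 peaks. The lists of AP-1 and ATF factors, NF-kB and innate immunity, epithelium and lung lineage had 0 peaks in the set, with 3 near-silent peaks each. Those of gut and liver lineage and of housekeeping genes also had 0, with 2 near-silent peaks each.

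The strongest marker peaks within 3 kb of a start site describe the line. Vim, a mesenchymal intermediate filament, held 701 and 820 reads, Krt8, a simple keratin, 584 and 559, and Cdh1, the epithelial cadherin, 90.7 and 130. Nkx2-1, a lung lineage factor, held 87.2 and 65.8 reads and Sftpc, a surfactant protein, 35.3 and 32.2. No peak within 3 kb of a start site was assigned to Epcam, Ptprc, Pecam1 or Cdh5. None of the 13 Malat1 peaks was in the set, since the weakest held 144 reads in control cells, and Malat1 RNA was not measured.

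Peaks that the rule did not choose also tended to be higher when they lay close to an opened peak. Of 697 other peaks whose centre was within 50 kb of one, 105 were called higher, or 15.1%, beside 2.23% of all peaks. None was called lower, beside 0.507% of all peaks, and 84.8% had a mean above the control mean. They come from the same contrast and libraries as the rule, so this is a description. Their median difference was 0.54 on the log2 scale, beside 0.09 over all peaks. None of the neighbours overlapped an opened peak, the nearest centres being 0.407 kb apart. The share of called peaks fell with distance: it was 27.0% within 10 kb, 11.8% from 10 to 50 kb, 5.83% from 50 to 200 kb, 2.33% up to 1000 kb and 1.58% beyond.

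Peaks that were not weak in control cells had similar shares. Among peaks with a control log2 mean of 4 or more, 98 of 622 within 50 kb of an opened peak were called higher, or 15.8%. Within 50 kb of the other near-silent peaks the share was 347 of 10687, or 3.25%. Of the opened peaks, 28.8% had such a called peak of any level outside the set within 50 kb, beside 12.4% of the other near-silent peaks. Around the mirror set the direction was opposite. Of 182 other peaks within 50 kb, 15 were called lower, or 8.24%, beside 0.507% of all peaks. Only 1 was called higher, or 0.549%, beside 2.23%. The mirror set was chosen by the same contrast, so this too is a description. Another 73 opened peaks had no peak of any kind within 50 kb.

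**Figure D4:**
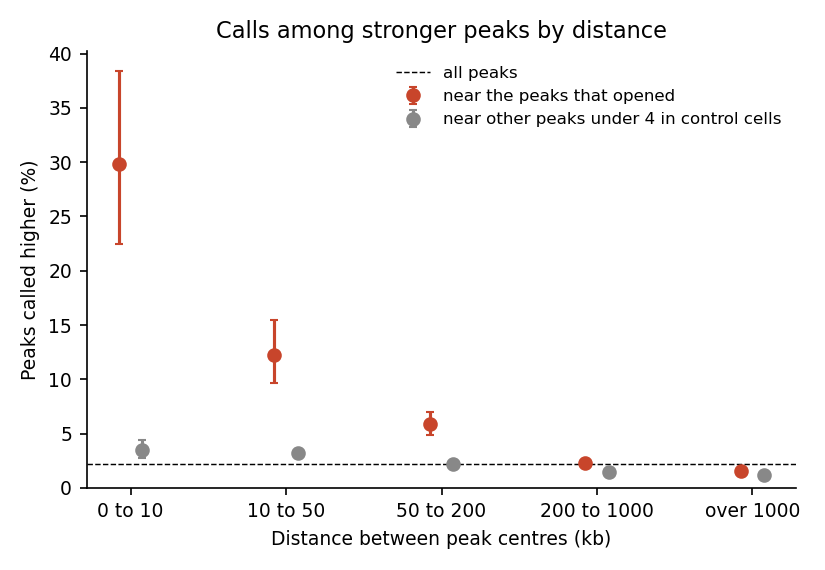
Share of peaks called higher (%, vertical) among peaks with a control log2 mean of 4 or more, by distance between centres (kb, horizontal) to the nearest opened peak (red) or the nearest other near-silent peak (grey). Bars are 95% Wilson intervals, which cover counting error only and treat peaks as independent, and the dashed line is the 2.23% of all peaks. The red points fall from 29.8% within 10 kb to 1.57% beyond 1000 kb, and the grey ones from 3.48% to 1.16%.

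The set was spread unevenly over chromosomes. Chromosome 1 held the most, 33 peaks. Chromosome 16 had the largest share of its peaks in the set, 0.892%, followed by chromosome 14 with 0.710% and chromosome 9 with 0.675%. Counted over near-silent peaks only, chromosome 14 came first with 18.2%. Chromosome 16 then had 16.9%, chromosome 1 16.6%, chromosome 9 14.4%, chromosome 19 5.26% and chromosome X 3.03%. Chromosome 19, which carries Malat1, had 4 peaks of 2698, or 0.148%, and chromosome X 3 of 1854, or 0.162%. The median difference of the peaks outside the set was 0.26 on chromosome 16, 0.06 on chromosome 14, 0.20 on chromosome 19 and -0.12 on chromosome X. Its part in the number of opened peaks was not tested.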

How the data were processed

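The members and gene lists were chosen with earlier results of these data known. Per the submitters' processing notes the build was mm10 and the tools named include Bowtie2, MACS2, Picard, DiffBind and ChIPseeker, whose roles and versions, like read shifting and normalization, were not given in the sources used here. Per the file headers, the authors deposited a log2 mean normalized read value per peak and group, a log2 fold, and a p-value with its adjusted p-value (FDR) across all peaks. The authors' normalization sets the scale, so depth per library was not computed and weak peaks rest on few reads. Here the means were raised from log2 to reads and compared as a difference of means, with Python 3.11.15, pandas 2.3.3 and scipy 1.17.1. The 4 per-library columns were not used, so no count model was run.

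Named peaks are the 12 with the smallest p (1 per gene, without predicted genes), 8 within 3 kb of a start site, 3 genes per list, genes with 3 or more members (counts, and values for groups), and the highest and largest. The 15 lists hold 577 genes. All 243 gene identifiers of the set were found in RefSeq. Host genes are the longest RefSeq protein-coding gene over the peak's centre. Routines for distance and grouping were tested on simulated positions. Motifs were searched only in RefSeq promoter windows, since the sequence of the peaks was not used here, on both strands. Beside TGANTCA, the TEAD letters GGAATGT matched 2 of the 10 overlapping windows and 3.85% of all windows. The FOX letters TGTTTAC matched 1, beside 3.65% of all windows. The CEBP letters TTGCNNAA matched 1, beside 10.8%, and the SP/KLF letters GGGCGGGG matched 1, beside 17.6%. The E-box letters CAGCTG matched 5 windows, beside 16.3% of all. The GATA letters AGATAAG matched 0 windows, beside 3.05% of all windows. The RUNX letters TGTGGTTT matched 0, beside 1.78%, and the ETS letters CCGGAAGT matched 0, beside 3.89%. The SOX letters ACAAAGG matched 0, beside 5.89% of all windows. No pair of these was checked for overlap.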

Additional observations from a re-analysis of the deposited data

How the results depend on the processing

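The number of peaks in the set was 217 with a control level under 3.5, 367 with one under 4.5 and 254 with centred differences. It was 748 with a difference of 1.5 or more and 96 with 2.5 or more. Of the 277 called peaks of the set, 155 had an adjusted p under 0.01 and 26 an authors' log2 fold of 2 or more in the authors' deposited table. The share of other peaks called higher near the set was 27.0% within 10 kb and 8.26% within 200 kb, and 12.5% around peaks of the set outside the loci of 3 or more, an alternative chosen after seeing the data. The share near a start site was 6.73% within 3 kb and 4.49% with the narrower limit of 1 kb. The distal intergenic share was 44.9%, and 43.7% among called peaks of the set only. The median distance stayed between 86.5 and 102 kb under 4 choices of peaks made after seeing the data. The planned fits of counts (2 tools, scalings, filters, each library left out) were not run because columns of single libraries match no sample label, nor were motif and GC shares of whole peaks. No paired analysis was possible because the group means carry no replicate numbers.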
